A study of Mus musculus with 9 samples.

Results

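The genes described here are the transcription factor gene Trp53, which encodes p53, and 9 genes known as p53 targets: Eda2r, Ccng1, Sesn2, Cdkn1a, Mdm2, Phlda3, Trp53inp1, Zmat3 and Btg2. They were chosen by name, as 10 of the 23201 genes that could be named in the deposited tables, and each was represented by its RefSeq transcript with the highest mean level over the 9 libraries. RNA came from E13.5 mouse cerebral cortex on a mixed C57BL/6, C57BL/6J and CBA background: 3 embryos homozygous for an Sfpq knockout (sfpq_homo_KO), 3 heterozygous embryos (sfpq_hetero_KO) and 3 controls. Sfpq is a nuclear RNA-binding protein, and the series asks what its loss does to the expression of long neuronal genes. Ribosomal RNA was removed and RNA with and without a poly(A) tail was read, so unspliced RNA is counted where it overlaps exons. The extraction text writes Sfpq+/- for both mutant groups, and the genotype used here is that of the sample titles and genotype labels. The labels name no Cre driver and do not say which cells lost the gene, which exons were removed or which alleles the controls carry.

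p53 is a transcription factor whose activity is set mainly by the stability of its protein, so its own RNA need not move when its targets do. When cells sense DNA damage, ribosome stress or mitotic delay, the protein escapes destruction by the ubiquitin ligase Mdm2 and binds response elements of its targets, which arrest the cell cycle, restrain growth signalling, promote cell death and, through Mdm2 itself, switch p53 off again. In the embryonic mouse cortex, p53-dependent loss of neural progenitors is a known outcome of many mutations that disturb division or RNA processing.

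The estimated depth was 168 to 205 M reads per library (M, mega), as read from the steps between low RPKM values (reads per kilobase of transcript and M mapped reads). Sfpq itself was at 26.1 to 28.6 RPKM in homozygous, 163 to 185 RPKM in heterozygous and 184 to 218 RPKM in control libraries, so every homozygous library lay below the others. Heterozygous and control libraries overlapped. These are values of a non-coding RefSeq transcript of Sfpq, the one with the highest mean level. By Xist and Y-linked genes, the homozygous embryos were 1 female and 2 males, the heterozygous embryos 3 males and the controls 2 females and 1 male. Heterozygous library 3, called male, had Xist at 0.131 RPKM, where the female libraries were at 2.44 to 3.64 RPKM. The cortical marker Emx1 was present in all libraries, at 40.8 to 47.1 RPKM in homozygous, 58.6 to 62.2 RPKM in heterozygous and 59.1 to 79.9 RPKM in control cortex. Homozygous library 2 stood apart from the other two in the p53 targets that rose, being the lowest of its group in each, and those results are given with and without it.

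In homozygous cortex 5 of the 10 genes rose against control: the death receptor gene Eda2r, the cyclin gene Ccng1, the growth inhibitor genes Sesn2 and Phlda3, and the cell cycle inhibitor gene Cdkn1a. None fell, and Trp53, Mdm2, Trp53inp1, Zmat3 and Btg2 did not pass the test. Of all 12159 genes tested, 14.4% rose (limma, Benjamini-Hochberg adjusted p below 0.05), and 34.3% changed in either direction, so a share of 5 in 10 was above the background, though these genes were listed with earlier results of the same data known. In these 5 genes all homozygous libraries lay above all controls, and Mdm2 was the gene without overlap on the lower side; over all genes 20.6% did not overlap with higher values, and 46.2% in either direction. The median log2 change was 0.28 for the 10 genes and -0.0089 for all genes tested. In heterozygous cortex none of the 10 passed. All 10 genes reached the mean of 0.5 RPKM that the test asked for.

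**Figure D1:**
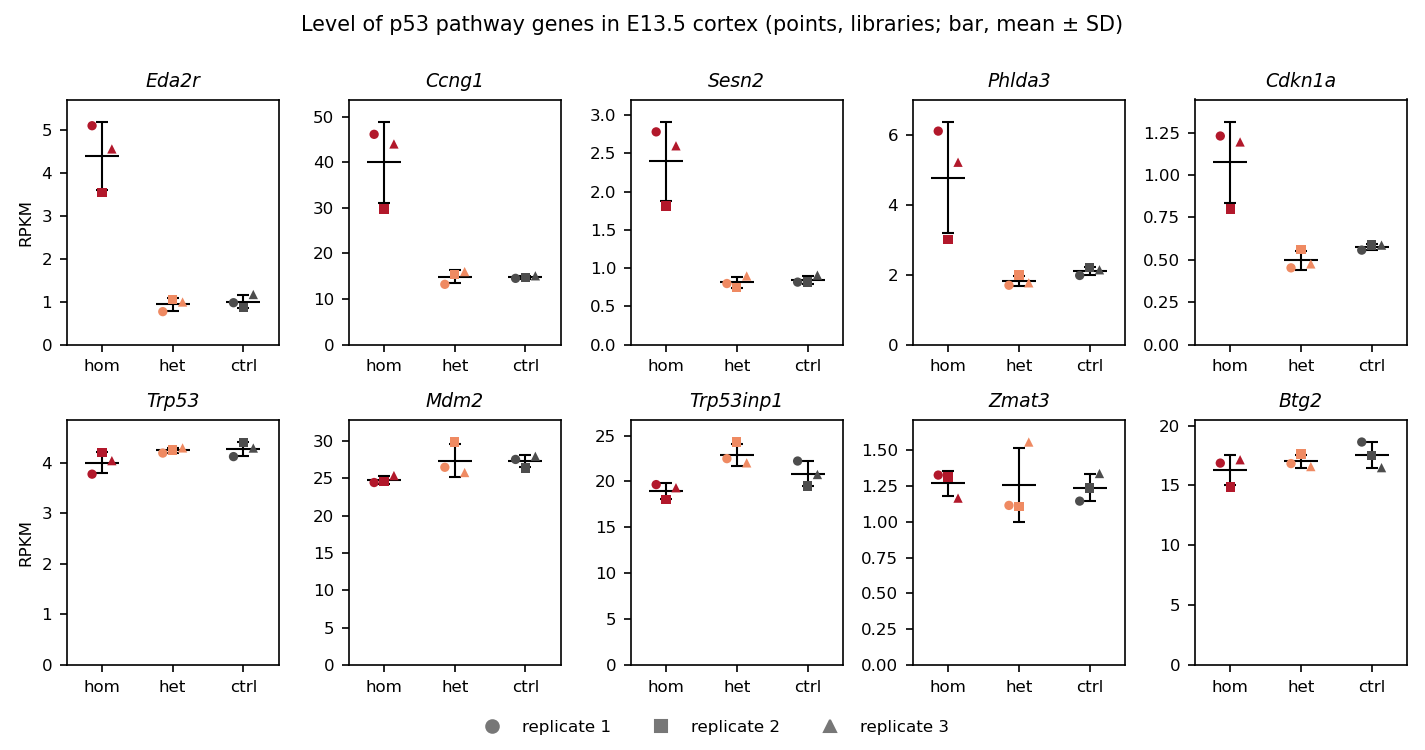
Level (RPKM, linear axis from 0) of Trp53 and 9 p53 target genes in homozygous (hom), heterozygous (het) and control (ctrl) libraries; each point is 1 library, its shape the replicate number, and the bars give the mean ± SD (n = 3). In the upper row the 3 homozygous points lie above all others and replicate 2 is the lowest of them; in the lower row the homozygous levels are close to or overlap the others.

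Among the genes of cell death signalling was Eda2r, whose product is a receptor of the tumour necrosis factor receptor family that binds ectodysplasin A2. Eda2r was at 5.10, 3.54 and 4.56 RPKM in homozygous libraries 1, 2 and 3, at 0.770, 1.05 and 0.994 RPKM in heterozygous libraries and at 0.978, 0.866 and 1.17 RPKM in control libraries. The lowest homozygous value was above every other value, and heterozygous and control values overlapped. The homozygous mean of 4.402 ± 0.792 RPKM was 4.38 times the control mean of 1.00 ± 0.153 RPKM (SD, n = 3 each). This is a log2 change of 1.70 ± 0.13 (SE, limma adjusted p = 2.57e-06). It ranked 17th from the top among the 12159 log2 changes, the highest place of the 10 genes. Eda2r is X-linked, and the embryos differ in sex: the homozygous female was at 5.10 RPKM against 0.866 and 0.978 RPKM in the control females, and the homozygous males were at 3.54 and 4.56 RPKM against 1.17 RPKM in the control male. The difference was thus present in embryos of either sex. The other RefSeq transcripts of Eda2r moved with it: NM_001161432 averaged 3.50 RPKM in homozygous and 0.761 RPKM in control cortex, and NM_175540 averaged 3.66 and 0.794 RPKM in the same order of genotypes. All of them have the same annotated length of 4752 bases and can share most reads, so their agreement is not separate evidence.

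Cdkn1a and Ccng1 act on the cell cycle. Cdkn1a encodes p21, which inhibits cyclin-dependent kinases, and was at 1.23, 0.800 and 1.19 RPKM in homozygous libraries, 0.453, 0.562 and 0.476 RPKM in heterozygous libraries and 0.557, 0.587 and 0.587 RPKM in control libraries. It is a low-level gene here, with an estimated 152 to 445 reads per library, and homozygous values were again above all others. The ratio of the homozygous mean (1.07 ± 0.239 RPKM, SD, n = 3) to the control mean (0.577 ± 0.0172 RPKM, SD, n = 3) was 1.86, and the log2 change was 0.54 ± 0.11 (SE, limma adjusted p = 0.00284). The 0.5 RPKM added before taking logs shrinks the log2 change of a gene at this level. Cdkn1a has transcripts from separate start sites: NM_001111099, which starts upstream, averaged 1.00 RPKM in homozygous and 0.554 RPKM in control cortex, beside 1.07 and 0.577 RPKM for NM_007669. How the authors divided reads that fit both transcripts is not stated.

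Ccng1 encodes cyclin G1, which brings a phosphatase to Mdm2 and so feeds back on p53. It was the gene with the highest level among those that rose, at 46.1, 29.7 and 44.0 RPKM in homozygous, 13.2, 15.5 and 16.02 RPKM in heterozygous and 14.5, 14.7 and 15.1 RPKM in control libraries. The homozygous libraries had a mean of 40.0 ± 8.91 RPKM and the control libraries one of 14.8 ± 0.294 RPKM (SD, n = 3 each). The ratio of means was 2.71, and the log2 change was 1.38 ± 0.14 (SE, limma adjusted p = 1.89e-05).

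The classical p53 response element is a pair of 10-base units, here called p53 decamers, and the sequences below show where the start regions of the responding genes hold it. They are the 250 bases before the annotated start, from the RefSeq table of GRCm38.p6, in lower case with capitals for each decamer without mismatch and for each pair of decamers with at most 2 mismatches in all and a spacer of at most 13 bases. Mdm2 is shown as a target that did not rise, and Eda2r as the gene with the steepest rise. The decamer reads alike on both strands, so 1 search covers them, and matches were allowed to overlap.
Cdkn1a, upstream start, + strand, chr17:29090729-29090978: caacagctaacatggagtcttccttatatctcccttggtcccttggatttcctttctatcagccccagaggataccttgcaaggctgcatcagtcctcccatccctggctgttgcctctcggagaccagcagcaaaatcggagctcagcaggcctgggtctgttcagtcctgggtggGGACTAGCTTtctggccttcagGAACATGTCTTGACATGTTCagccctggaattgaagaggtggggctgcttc
Ccng1, - strand, chr11:40755287-40755536: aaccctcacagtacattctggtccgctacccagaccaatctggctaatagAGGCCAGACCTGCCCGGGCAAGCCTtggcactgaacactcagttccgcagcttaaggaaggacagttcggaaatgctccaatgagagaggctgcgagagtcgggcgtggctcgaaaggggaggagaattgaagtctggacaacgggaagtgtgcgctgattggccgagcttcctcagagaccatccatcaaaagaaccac
Eda2r, - strand, chrX:97377210-97377459: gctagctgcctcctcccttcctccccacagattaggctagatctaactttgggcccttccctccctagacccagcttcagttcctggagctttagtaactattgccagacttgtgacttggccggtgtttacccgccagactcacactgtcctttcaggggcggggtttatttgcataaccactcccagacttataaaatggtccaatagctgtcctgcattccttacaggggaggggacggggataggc
Mdm2, - strand, chr10:117710759-117711008: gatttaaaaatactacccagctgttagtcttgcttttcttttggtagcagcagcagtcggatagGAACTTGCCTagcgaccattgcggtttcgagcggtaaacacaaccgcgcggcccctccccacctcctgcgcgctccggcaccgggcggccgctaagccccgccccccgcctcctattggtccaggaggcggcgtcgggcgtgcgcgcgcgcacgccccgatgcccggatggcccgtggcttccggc

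The upstream start of Cdkn1a had 3 decamers in capitals. GGACTAGCTT and GAACATGTCT form a pair without mismatch from 73 to 42 bases before the start, with a spacer of 12 bases. GAACATGTCT and TGACATGTTC lie directly side by side from 51 to 32 bases before the start, with 1 mismatch. Ccng1 held AGACCTGCCC and GGGCAAGCCT side by side from 195 to 176 bases before its start, also with 1 mismatch, and a further overlapping pair with 2. Mdm2 held 1 decamer without mismatch and no pair in this window; in mouse and human its p53-responsive promoter is known to lie inside the gene, which the window does not cover. Eda2r held no match. Start regions were found for 8 of the 10 genes, 9 windows in all, and 2 of the 9 held a pair, against 3.34% of the 32851 windows in the table; 4 of the 9 held a decamer without mismatch, against 7.13%. Besides those printed, Trp53 held 1 decamer, and Sesn2, Phlda3, Btg2 and the downstream start of Cdkn1a held none. A match of letters is not evidence of binding, and windows this short leave out most regulatory sequence.

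Sesn2 and Phlda3 restrain growth signalling. Sesn2 encodes a leucine sensor that inhibits mTORC1 and is also a target of the stress factor ATF4. It was at 2.78, 1.81 and 2.60 RPKM in homozygous, 0.798, 0.751 and 0.897 RPKM in heterozygous and 0.817, 0.820 and 0.908 RPKM in control libraries. The ratio of the homozygous mean (2.40 ± 0.515 RPKM, SD, n = 3) to the control mean (0.848 ± 0.0517 RPKM, SD, n = 3) was 2.83, and the log2 change was 1.09 ± 0.12 (SE, limma adjusted p = 4.39e-05). Here too no homozygous library overlapped any other.

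Phlda3 encodes a small lipid-binding protein that competes with the kinase Akt for the membrane. It was at 6.10, 3.00 and 5.21 RPKM in homozygous, 1.70, 1.99 and 1.77 RPKM in heterozygous and 1.98, 2.21 and 2.14 RPKM in control libraries. Its homozygous libraries were the most spread of the 10 genes, with an SD of 33.4% of the mean, and library 2 was nearest to the controls. The mean of 4.77 ± 1.59 RPKM in homozygous cortex was 2.26 times that of 2.11 ± 0.118 RPKM in control cortex (SD, n = 3 each), with a log2 change of 0.97 ± 0.18 (SE, limma adjusted p = 0.00186).

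Homozygous library 2 was the lowest of its group in each of the 5 genes that rose, and homozygous library 1 the highest. Relative to the mean of homozygous libraries 1 and 3, library 2 was at 0.733 for Eda2r, 0.660 for Ccng1, 0.674 for Sesn2, 0.660 for Cdkn1a and 0.531 for Phlda3. Among the genes that did not pass, the same ratio was 0.875 for Btg2 and 0.924 for Trp53inp1, where library 2 was also the lowest, and 0.987 for Mdm2, 1.05 for Zmat3 and 1.07 for Trp53, where it was not. In that library the depth was 177 M reads and Sfpq was at 28.6 RPKM, the highest of the 3 by a small margin, and the embryo was male, as was that of library 3. Without it the 5 calls stood, with log2 changes of up to 1.83 for Eda2r, 1.58 for Ccng1, 1.24 for Sesn2, 1.24 for Phlda3 and 0.67 for Cdkn1a. Over the removal of each library in turn, the largest adjusted p (limma) was 3.05e-05 for Eda2r, 0.000177 for Ccng1, 0.000406 for Sesn2, 0.00905 for Phlda3 and 0.0146 for Cdkn1a. Permuting genotype labels over RPKM values (exact, two-sided) gave p = 0.1 for each of the 5 genes, the smallest value that 3 against 3 libraries allow.

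The genes that did not pass include p53 itself and its chief inhibitor. Trp53 was at 3.77, 4.20 and 4.04 RPKM in homozygous, 4.19, 4.25 and 4.29 RPKM in heterozygous and 4.12, 4.40 and 4.29 RPKM in control libraries, and the groups overlapped. The log2 change in homozygous cortex was -0.08, with a 95% interval of -0.23 to 0.06, which leaves out a change of the size seen for any of the 5 risen genes. Mdm2, the ubiquitin ligase that p53 itself induces, was at 24.4, 24.6 and 25.4 RPKM in homozygous, 26.5, 29.8 and 25.8 RPKM in heterozygous and 27.5, 26.4 and 27.9 RPKM in control libraries. Homozygous values of Mdm2 lay just below all controls, a lack of overlap with lower values that 25.6% of genes tested showed. The log2 change was -0.14 ± 0.06 (SE, limma adjusted p = 0.105), with an interval of -0.27 to -0.0038; with each library centred on its median the log2 change was -0.068 (limma adjusted p = 0.441).

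Trp53inp1 encodes a p53 cofactor that also takes part in autophagy. It was at 19.7, 18.01 and 19.3 RPKM in homozygous, 22.5, 24.3 and 22.03 RPKM in heterozygous and 22.2, 19.5 and 20.8 RPKM in control libraries. Against control the log2 change was -0.13 ± 0.06 (SE, limma adjusted p = 0.146). Zmat3 encodes an RNA-binding zinc finger protein, and at 1.33, 1.31 and 1.17 RPKM in homozygous, 1.12, 1.11 and 1.56 RPKM in heterozygous and 1.15, 1.24 and 1.34 RPKM in control libraries it showed full overlap. The interval of its log2 change in homozygous cortex ran from -0.21 to 0.25. Btg2 encodes an antiproliferative protein that marks the neurogenic progenitors of the mouse cortex. It was at 16.9, 14.9 and 17.1 RPKM in homozygous, 16.8, 17.6 and 16.6 RPKM in heterozygous and 18.6, 17.5 and 16.5 RPKM in control libraries, with a log2 change of -0.10 ± 0.07 (SE, limma adjusted p = 0.273).

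**Figure D2:**
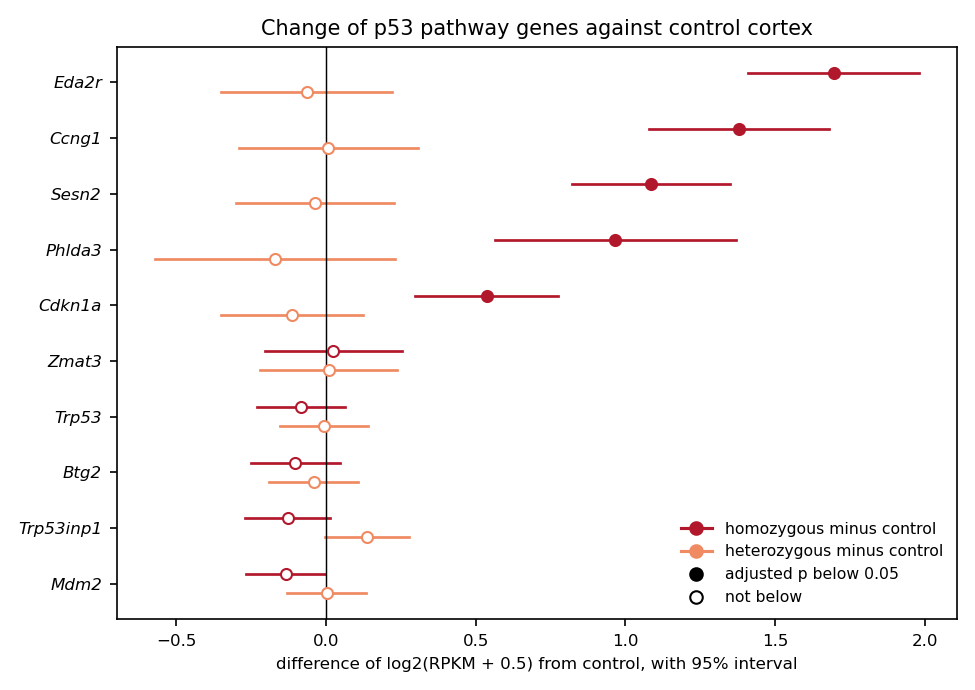
Difference of log2(RPKM + 0.5) from control (horizontal axis) for homozygous and heterozygous cortex, with 95% intervals from limma; filled points have an adjusted p below 0.05. The homozygous points of Eda2r, Ccng1, Sesn2, Phlda3 and Cdkn1a run from 1.70 down to 0.54, while their heterozygous points and all points of the other 5 genes lie near 0. Both comparisons use the same 3 control libraries.

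Heterozygous cortex shows whether these genes moved where 1 Sfpq copy was knocked out. Sfpq RNA itself averaged 172 RPKM there and 201 RPKM in control cortex, and the libraries overlapped. Its log2 change was -0.22 ± 0.07 (SE), with a limma p of 0.00838 before and 0.709 after adjustment over all genes. Heterozygous libraries 2 and 3, at 163 and 169 RPKM, lay below every control. Sfpq was thus not called in this group, but a modest fall of its RNA is not excluded. The value is that of the non-coding transcript. None of the 10 passed (limma), none did so at an unadjusted p below 0.05, and over all genes 0% were called, with 699 at an unadjusted p below 0.05. No gene of the 10 had heterozygous libraries all above or all below the controls, where 3.54% of all genes were above, 7.54% below and 11.1% either. The median log2 change was -0.02 for the 10 genes. The 95% interval of the heterozygous log2 change was -0.35 to 0.22 for Eda2r, -0.29 to 0.31 for Ccng1, -0.30 to 0.23 for Sesn2, -0.57 to 0.23 for Phlda3 and -0.35 to 0.13 for Cdkn1a. For each of these genes the interval ended below the lower bound of the homozygous interval, which was 1.41, 1.08, 0.823, 0.565 and 0.298 in the same order. Trp53inp1 had the highest heterozygous value of the 10, a log2 change of 0.14 ± 0.06 (SE, limma adjusted p = 0.858).

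Set directly against heterozygous cortex, homozygous cortex showed the same 5 genes higher and 1 gene lower, where 14.6% of all genes were higher, 18.3% lower and 32.8% either. Libraries did not overlap for these 5 genes on the higher side, nor for Trp53inp1 and Mdm2 on the lower side, against 22.5% and 24.2% of all genes and 46.7% in either direction. The log2 change was 1.76 ± 0.13 for Eda2r (limma adjusted p = 2.11e-06), 1.37 ± 0.14 for Ccng1 (2.06e-05), 1.12 ± 0.12 for Sesn2 (3.60e-05), 1.14 ± 0.18 for Phlda3 (0.000687) and 0.65 ± 0.11 for Cdkn1a (0.000891), each with its SE. The lower gene was Trp53inp1, at a log2 change of -0.27 ± 0.06 (SE, limma adjusted p = 0.00842), and its 3 homozygous libraries lay below all 3 heterozygous ones. That call was lost when each library was centred on its median (limma adjusted p = 0.0515). Mdm2 was at a log2 change of -0.14 (limma adjusted p = 0.103).

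The 10 genes differ in level and length. Among control libraries the mean level ran in the order Mdm2 (27.3 RPKM), Trp53inp1 (20.8), Btg2 (17.5), Ccng1 (14.8), Trp53 (4.27), Phlda3 (2.11), Zmat3 (1.24), Eda2r (1.00), Sesn2 (0.848) and Cdkn1a (0.577). Zmat3 and Eda2r, and Eda2r and Sesn2, overlapped in their control libraries, and the other neighbours in that order did not. In homozygous cortex Ccng1, at a mean of 40.0 RPKM, stood above Mdm2, at 24.8 RPKM. All risen genes but Ccng1 averaged 2.11 RPKM or less in control cortex. The genes span 3.05 kb (Phlda3) to 43.4 kb (Eda2r) in the RefSeq annotation of GRCm38, so none is among the very long genes that the series is about. Eda2r overlaps a pseudogene, and Zmat3 a long non-coding RNA gene, in that annotation, and no source used here says whether the authors' counting kept strands apart.

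The wider p53 programme was read from 2 lists of other known targets. Of 11 tested targets in cell death, 3 rose and 1 fell in homozygous cortex, with a median log2 change of 0.14; of all genes tested 14.4% were higher and 19.9% lower. Bbc3, which encodes the BH3-only protein Puma, was at 4.20, 2.01 and 4.44 RPKM in homozygous, 1.09, 0.956 and 1.28 RPKM in heterozygous and 1.38, 1.34 and 1.15 RPKM in control libraries (log2 change 1.12 ± 0.21 SE, limma adjusted p = 0.00178). Bbc3 was lowest in homozygous library 2, like the 5 genes above. Pmaip1, which encodes the related protein Noxa, averaged 2.13 ± 0.256 RPKM in homozygous and 1.08 ± 0.204 RPKM in control cortex (SD, n = 3 each), and the apoptosis nuclease gene Aen averaged 13.3 ± 1.83 and 9.26 ± 1.18 RPKM in the same genotypes (limma adjusted p = 0.00582 and 0.00344). Bax, which encodes a pore-forming executor of mitochondrial cell death, was at 36.7 to 46.8 RPKM in homozygous and 32.8 to 44.8 RPKM in control libraries (limma adjusted p = 0.324). Siva1 was the target that fell (log2 change -0.19, limma adjusted p = 0.0276); without homozygous library 2 it was no longer called, Ei24 was, and the counts were 4 higher and 0 lower. Under quantile normalization the counts were 6 higher and 1 lower, and with each library centred on its median 7 and 0. Of all 12159 genes, 2568 were higher and 2167 lower under quantile normalization, and 2953 and 1947 under median centring. Without rescaling 1747 were higher and 2423 lower, so the share of all genes called higher also grew.

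Of 26 tested targets in arrest, metabolism and repair, 4 rose and 4 fell, with a median log2 change of 0.04, which is close to the 14.4% higher and 19.9% lower of all genes. The stress sensor gene Gadd45a averaged 10.6 ± 2.05 RPKM in homozygous and 6.22 ± 0.669 RPKM in control cortex, and here homozygous library 2, at 12.8 RPKM, was the highest and not the lowest. Sesn1, a relative of Sesn2, averaged 45.6 ± 6.40 and 30.1 ± 3.71 RPKM, and the lipase-like gene Abhd4 5.67 ± 0.142 and 3.91 ± 0.259 RPKM in homozygous and control cortex (SD, n = 3 each; limma adjusted p = 0.00142 for Gadd45a, 0.00106 for Sesn1 and 0.000249 for Abhd4). The thiamine transporter gene Slc19a2 also rose (log2 change 0.42). The 4 that fell were Pcna, Cgrrf1, Rrm2b and Psrc1. Pcna, the replication clamp, is both a p53 target and a gene of dividing cells, and averaged 142 ± 6.81 RPKM in homozygous and 203 ± 10.1 RPKM in control cortex (SD, n = 3 each). Without homozygous library 2 this list had 6 higher and 3 lower, and with each library centred on its median 8 higher and 3 lower. Under that centring 2953 of all 12159 genes were higher and 1947 lower.

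**Figure D3:**
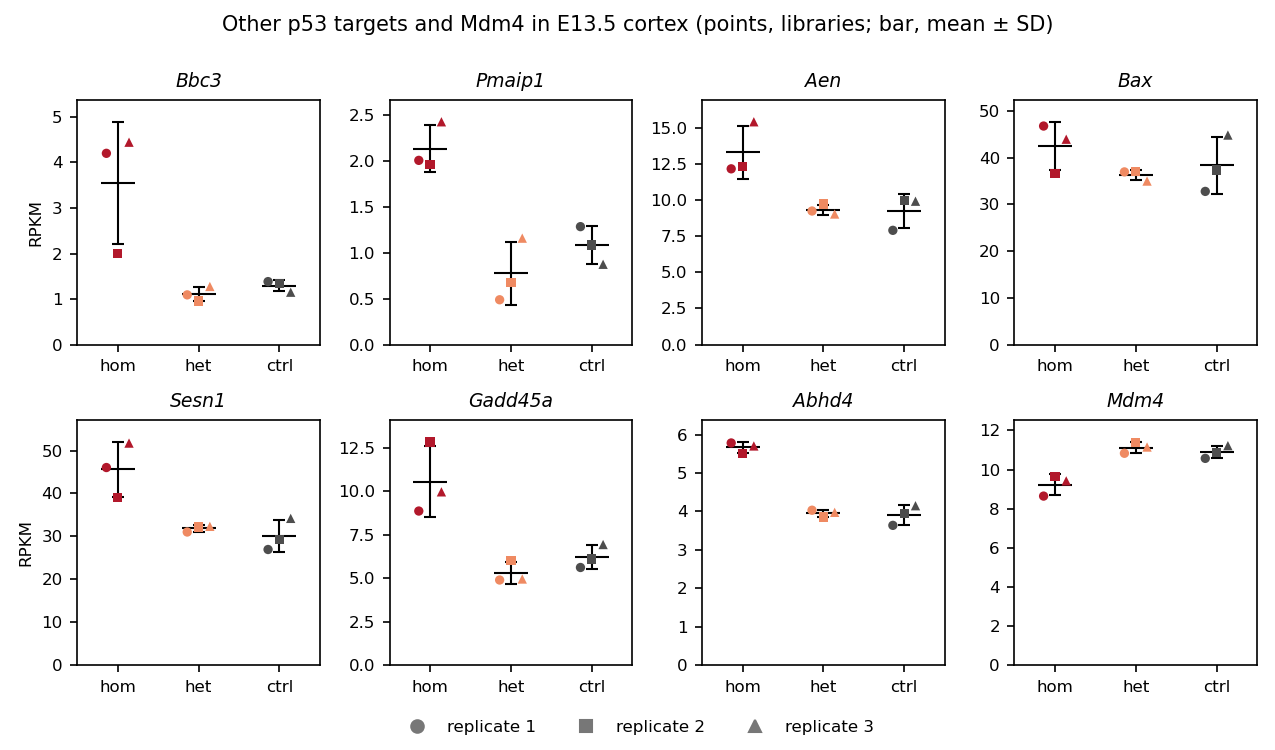
Level (RPKM, linear axis from 0) of 7 other p53 targets and of the p53 inhibitor gene Mdm4 in homozygous (hom), heterozygous (het) and control (ctrl) libraries; points are libraries, shapes replicate numbers and bars mean ± SD (n = 3). Bbc3, Pmaip1, Aen, Sesn1, Gadd45a and Abhd4 have every homozygous point above every control point, Bax overlaps, and Mdm4 is lower in homozygous cortex.

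Of 25 tested regulators of p53, 5 were higher and 2 lower, beside 14.4% and 19.9% of all genes, with a median log2 change of -0.03 that became 0.0031 under quantile normalization and 0.041 under median centring. Mdm4, a relative of Mdm2 that inhibits p53, was at 8.64, 9.63 and 9.42 RPKM in homozygous, 10.8, 11.4 and 11.2 RPKM in heterozygous and 10.6, 10.9 and 11.2 RPKM in control libraries (log2 change -0.23 ± 0.06 SE, limma adjusted p = 0.0120). Its homozygous libraries lay below all others. The kinase gene Hipk2, which phosphorylates p53, averaged 1.86 ± 0.0969 RPKM in homozygous and 1.25 ± 0.0690 RPKM in control cortex, and Trp53bp1, a DNA damage response gene, 37.7 ± 3.11 and 30.4 ± 2.62 RPKM (SD, n = 3 each; limma adjusted p = 0.00194 and 0.00888). Rpl5, a ribosomal protein that can bind Mdm2, was at 303.5 ± 8.23 and 270.2 ± 9.999 RPKM in these genotypes (SD, n = 3 each; limma adjusted p = 0.0167). The p53-induced phosphatase gene Ppm1d was at 10.9 to 11.3 and 11.25 to 12.04 RPKM (limma adjusted p = 0.387). Without homozygous library 2 the count of regulators was 2 higher, Hipk2 and Trp53bp1, and 3 lower, and Rpl5 was no longer called.

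Cell cycle genes that p53 is known to repress through p21 and the DREAM complex fell together in homozygous cortex. Of 25 tested, 0 rose and 21 fell, with a median log2 change of -0.42, where 19.9% of all genes fell. The mitotic kinase gene Cdk1 was at 45.0, 48.6 and 40.2 RPKM in homozygous, 60.2, 60.3 and 63.8 RPKM in heterozygous and 67.9, 68.7 and 69.6 RPKM in control libraries (log2 change -0.62 ± 0.06 SE, limma adjusted p = 2.39e-05). Ccnb1, the cyclin of mitotic entry, averaged 50.7 ± 5.34 RPKM in homozygous and 71.8 ± 2.56 RPKM in control cortex (SD, n = 3 each, limma adjusted p = 0.000208). Aurka and Aurkb fell by 0.62 and 0.61 on the log2 scale. In heterozygous cortex 0 of the 25 were called against control, with a median log2 change of -0.078 beside -0.0088 for all genes. There Cdk1, Aurka, Birc5 and Ccnb1 lay below all controls, as 7.54% of all genes did, while Aurkb overlapped. The summed level of the list was 807, 919 and 750 RPKM in homozygous libraries 1, 2 and 3. It was 1053 to 1145 RPKM in heterozygous and 1124 to 1175 RPKM in control libraries. Homozygous library 2, which had the lowest levels of Eda2r, Ccng1, Sesn2, Phlda3 and Cdkn1a in its group, had the highest sum there. The order was not reversed throughout: homozygous library 1 had the highest levels of those targets, but library 3 had the lowest sum. Under quantile normalization 1 rose and 21 fell, and under median centring 1 and 20. Of all 12159 genes, 2167 and 1947 fell under these scalings. These genes mark dividing cells whatever the state of p53, and in bulk tissue fewer cells of a type and less RNA per cell cannot be told apart.

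**Figure D4:**
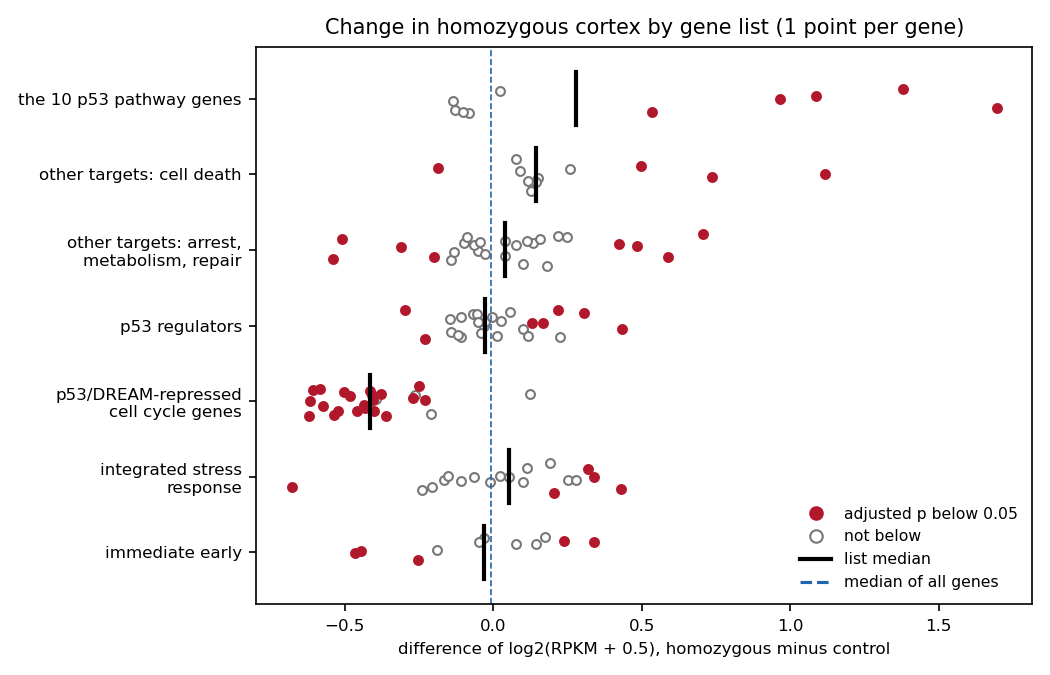
Difference of log2(RPKM + 0.5), homozygous minus control (horizontal axis), for each tested gene of the 10 p53 pathway genes and of 6 further lists; filled points have an adjusted p below 0.05, black bars are list medians and the dashed line is the median of all genes. The 10 genes split into 5 raised points and 5 near 0, and the cell cycle list lies at a median of -0.42.

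Since Sesn2 also answers to ATF4, integrated stress response genes were read beside it. Of 19 tested, 4 rose and 1 fell against control, beside 14.4% and 19.9% of all genes, with a median log2 change of 0.05. Against heterozygous cortex 7 of the 19 were higher and 0 lower, beside 14.6% and 18.3% of all genes. The median log2 change there was 0.095. The part of ATF4 in the rise of Sesn2 was not tested. Asparagine synthetase, Asns, averaged 14.4 ± 1.45 RPKM in homozygous and 10.6 ± 0.533 RPKM in control cortex, and the cystine transporter gene Slc7a11 3.24 ± 0.103 and 2.496 ± 0.0990 RPKM (SD, n = 3 each; limma adjusted p = 0.00309 and 0.00388). Phgdh and Atf3 also rose, by 0.20 and 0.34 on the log2 scale. Atf4 itself fell by 0.68 on the log2 scale against control (limma adjusted p = 0.0152). Against heterozygous cortex it was not called (log2 change -0.42, limma adjusted p = 0.1075), and the libraries overlapped. Ddit3, which encodes the stress factor CHOP, was at 5.41 to 9.27 RPKM in homozygous and 5.64 to 8.67 RPKM in control libraries (limma adjusted p = 0.851). With each library centred on its median, 9 rose and 1 fell, where 2953 of all 12159 genes were higher and 1947 lower.

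Marker genes of other cells also differed between the genotypes, and their part in the changes of the p53 targets was not tested. The counts below are for homozygous against control cortex, where 14.4% of all genes tested were higher and 19.9% lower. Of 11 tested microglia markers 6 rose and 0 fell, and the summed level of the 13 markers in the tables was 30.8 to 41.2 RPKM in homozygous, 24.7 to 29.5 RPKM in heterozygous and 24.9 to 25.8 RPKM in control libraries, with homozygous library 2 the lowest of its group. Of 9 tested Cajal-Retzius markers 7 rose and 0 fell, with a sum of 72.9 to 83.0 RPKM in homozygous, 48.9 to 54.3 RPKM in heterozygous and 49.2 to 54.7 RPKM in control libraries. Reln, the best known marker of these cells, was not among those that rose. It averaged 14.9 ± 0.354 RPKM in homozygous and 16.8 ± 1.88 RPKM in control cortex (SD, n = 3 each). Its log2 change was -0.16 (limma adjusted p = 0.148). Intermediate progenitor markers summed to 274 to 288 RPKM in homozygous, 324 to 354 RPKM in heterozygous and 312 to 381 RPKM in control libraries, with 5 of 15 lower and 2 higher; Btg2, which is on that list, did not pass. Radial glia markers fell in 6 of 15 cases and rose in 1, with sums of 1861 to 1952 RPKM in homozygous, 1944 to 2204 RPKM in heterozygous and 2001 to 2185 RPKM in control libraries. Markers of excitatory neurons fell in 7 of 14 cases and rose in 2, with sums of 536 to 655 RPKM in homozygous, 675 to 771 RPKM in heterozygous and 656 to 760 RPKM in control libraries. As with microglia markers, homozygous library 2 had the lowest sum of its group for Cajal-Retzius (72.9 RPKM) and excitatory neuron markers (536 RPKM). For intermediate progenitor and radial glia markers the lowest was homozygous library 1. Of 9 tested erythroid genes 2 fell, and none of 10 endothelial or 9 meningeal markers passed. No marker in any of these lists was at 0 in all libraries.

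The genes whose levels ran most like the mean of the 9 targets over the 9 libraries were Scarna13, Gjd2, Trim32, Txnip and Rnf139, with Pearson's r of 0.967, 0.963, 0.958, 0.954 and 0.954. The 9 points fall into genotype groups, and the genes were picked for this likeness, so their pattern over the libraries is a description. The mean gave each target equal weight, on log2 values brought to a common spread, and the targets did not run alike. Against the mean of the other targets, r ran from 0.737 for Eda2r to 0.857 for Phlda3 among the risen genes. It was -0.572 for Mdm2, -0.521 for Trp53inp1, -0.208 for Zmat3 and -0.204 for Btg2. Likeness to this mean is therefore not likeness to the risen genes alone. Txnip, a regulator of glucose uptake, was at 27.9, 17.7 and 26.2 RPKM in homozygous, 12.3, 16.8 and 15.2 RPKM in heterozygous and 14.1, 15.95 and 16.5 RPKM in control libraries (log2 change 0.58 ± 0.15 SE, limma adjusted p = 0.0130). The neuronal gap junction gene Gjd2 averaged 1.75 ± 0.315 RPKM in homozygous and 1.06 ± 0.120 RPKM in control cortex (SD, n = 3 each, limma adjusted p = 0.00980). The other three were not all called: Trim32 was (limma adjusted p = 0.0117), whereas Scarna13, the most alike, was at 456 ± 40.6 RPKM in homozygous and 404 ± 12.2 RPKM in control cortex (SD, n = 3 each, limma adjusted p = 0.0784) and Rnf139 had a log2 change of 0.07 (limma adjusted p = 0.316).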

How the data were processed

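Cerebral cortex of 9 E13.5 embryos was used, 3 of each Sfpq genotype. Libraries were made from ribosome-depleted total RNA with a modified strand-specific protocol, per the labels' protocols. The submitters' processing notes name build mm9, TopHat 1.4.1 and CASAVA 1.8.2. The authors deposited RPKM values of 30978 RefSeq transcripts per library, per the file headers; no source used here names the counting program or says how it handled strand and reads with several positions. RPKM divides out library size and length, so a large change in a few abundant genes can shift all others.

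Transcripts were named with RefSeq (GRCm38) and GENCODE M21 tables, and 293 stayed without a name and were left out. Each of 23201 genes was represented by its transcript with the highest mean. The 9 libraries entered 1 fit of log2(RPKM + 0.5) by genotype (limma 3.58.1, R 4.3.3, trended empirical Bayes), over the 12159 genes whose mean reached 0.5 RPKM. A gene was called where its adjusted p (Benjamini-Hochberg, over all tested genes) was below 0.05. A log2 change on this scale understates the change of low genes. The median SE of a log2 change was 0.0825. No counts are in the files: depth was estimated from the steps between low values (68.6% to 72.4% of low values lay within 0.1 of a whole read, with lengths from another annotation than the authors'), so no count test was run and no counting intervals are given. No 2 libraries held the same values.

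Genes named are Sfpq, the 10 members with their other transcripts and overlapping genes, the 5 genes most like them, and from each list its best known genes and up to 5 with the lowest adjusted p (homozygous against control); Slc19a2, Rrm2b, Psrc1, Ei24, Tnfrsf10b, Fas, Gdf15 and Rps3a1 were named after their values were seen. The members and the gene lists were chosen with earlier results of these data known. Of 262 list entries 258 were found in the tables. Alternatives were other pseudocounts, filters, transcripts, scalings, a fit of 2 genotypes, sex or replicate number as a term, and leaving out each library. Replicates were taken as separate embryos, and p-values measure the spread between libraries of a genotype.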

Additional observations from a re-analysis of the deposited data

How the results depend on the processing

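The rises of Eda2r, Ccng1, Sesn2, Phlda3 and Cdkn1a in homozygous against control and against heterozygous cortex kept their direction and call under the alternatives that kept the same filter or tested all genes. A minimum mean of 2 RPKM left 7 of the 10 genes in the test (without Sesn2, Cdkn1a and Zmat3) and gave 3 rises against control, of which Eda2r and Phlda3 reach that mean only through their homozygous libraries, so this setting says nothing of their stability. Over the leave-one-out fits, 3111 to 3875 genes changed in homozygous against control cortex. The split of 1747 higher and 2423 lower genes became 2953 and 1947 with each library centred on its median and 2568 and 2167 with quantile normalization, while the 5 rises stood. In a fit of heterozygous and control libraries alone 1 gene, Rps3a1, was called.

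With the replicate number as a block, 4429 genes and 5 of the 10 p53 genes changed in homozygous against control cortex, 0 in heterozygous against control. Same-numbered libraries had correlations of deviations between -0.0444 and 0.404, and not every library correlated best with its own number. The highest were those of homozygous with control library 1 (0.404) and library 3 (0.322). Whether the numbers mark a pairing of samples is therefore not known.

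Uncalled changes near 0 changed sign. In heterozygous against control cortex the log2 change with sex as a term was 0.026 for Btg2, -0.025 for Mdm2, 0.0074 for Phlda3, 0.030 for Sesn2 and -0.0079 for Zmat3, with the coding transcript of the longest span 0.00071 for Eda2r and 0.011 for Trp53, and with median centring 0.00056 for Trp53. Leaving out each library gave ranges of -0.084 to 0.0019 for Btg2, -0.045 to 0.088 for Ccng1, -0.13 to 0.022 for Eda2r, -0.061 to 0.043 for Mdm2, -0.030 to 0.012 for Trp53 and -0.11 to 0.069 for Zmat3. In homozygous cortex the ranges were -0.015 to 0.067 for Zmat3 against control, and -0.045 to 0.13 for Zmat3 and -0.099 to 0.00057 for Btg2 against heterozygous cortex. The cause was not tested. With 3 embryos a genotype, the data do not exclude heterozygous changes of the sizes inside the intervals given.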

Other observations

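Some death receptor and secreted targets of p53 were too low for the test. Tnfrsf10b, the mouse TRAIL receptor gene, was at 0.641, 0.576 and 0.544 RPKM in homozygous, 0.324, 0.384 and 0.357 RPKM in heterozygous and 0.353, 0.350 and 0.372 RPKM in control libraries, so the homozygous values lay above all others. The death receptor gene Fas was at 0.0476, 0.00759 and 0.110 RPKM in homozygous and 0.0352 to 0.0719 RPKM in control libraries, and the secreted stress factor gene Gdf15 was at 0.0520 to 0.0924 and 0.0314 to 0.123 RPKM in these genotypes, with overlap in each.

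Immediate early genes, to which Btg2 is related by its rapid induction, did not move one way. Of 11 tested, 2 rose and 3 fell in homozygous against control cortex, beside 14.4% and 19.9% of all genes. Their median log2 change was -0.03 (0.037 under median centring, 0.063 without homozygous library 2). Ier5 rose by 0.24 on the log2 scale (limma adjusted p = 0.0159), and Btg1, a relative of Btg2, averaged 5.76 ± 0.136 RPKM in homozygous and 8.15 ± 0.388 RPKM in control cortex (SD, n = 3 each, limma adjusted p = 0.000194). Jun averaged 15.0 ± 0.670 and 20.9 ± 4.14 RPKM in the same genotypes.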
